A study of Mus musculus with 4 samples.

Results

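Neutrophils of the left ventricle were examined in a single-cell series of heart leukocytes from DOCA-salt and sham mice. The cells were chosen by measured UMI counts: a barcode was taken as a neutrophil when S100a8 and S100a9, the subunits of calprotectin, together made up at least 5% of its RNA UMIs (unique molecules). It could hold at most 3 UMIs of the macrophage genes C1qa, C1qb and C1qc, at most 1 of the T cell genes Cd3e, Cd3d and Cd3g, and at most 2 of the B cell genes Cd79a, Cd79b and Ms4a1. It also needed at least 200 genes, at most 10% mitochondrial UMIs and a highest hashtag, the antibody tag that marks the mouse, at 2 times or more of the second. This gave 116 neutrophils among 11148 barcodes assigned to a mouse (11959 barcodes in all), of which 108 of 7030 came from DOCA-salt mice and 8 of 4118 from sham mice.

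DOCA-salt mice, of the C57Bl6J genotype, had been given deoxycorticosterone acetate together with salt, which raises blood pressure. Sham mice, of the same genotype, were the controls. Dose, duration, age and sex are not given in the sources used here. The left ventricles were perfused and digested, CD45-carrying cells were enriched, stained with hashtags and surface antibodies, pooled over 4 mice a group and sorted, and each group was 1 library of a 5' kit. Library and treatment therefore cannot be told apart. The labels call the 4 mice of a group biological replicates.

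Neutrophils are short-lived granulocytes made in the bone marrow, where granule proteins are produced in waves: primary granules first, secondary granules with cathelicidin (Camp) next, and gelatinase granules last. Mature cells leave the marrow under the control of the receptors Cxcr2 and Cxcr4, depend on G-CSF through Csf3r, and enter tissue along chemokines such as CXCL1 and CXCL2. In injured mouse hearts a tissue-altered neutrophil that carries the lectin Siglecf has been described.

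The 108 DOCA-salt neutrophils carried few molecules: a median of 2071 UMIs and 820 genes, against 9341 UMIs and 2777 genes in the 93 classical monocytes and 2996 UMIs and 1273 genes in the 3396 B cells of the same library. Their median mitochondrial share was 0.426%, against 1.35% in monocytes. The libraries shared 41 barcode sequences, none of them in a neutrophil. Scrublet called 243 DOCA-salt barcodes (3.31%) and 53 sham barcodes (1.25%) doublets, among them 3 DOCA-salt neutrophils, which were kept.

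The label was checked against the 2 markers that the rule did not use. Retnlg, a resistin-like protein that neutrophils secrete, was found in 107 of 108 DOCA-salt cells, and Csf3r in 103. Markers of other cells were low or at 0. The macrophage, B cell and T cell lists include the genes that the rule capped, so their low shares were partly set by it. Monocytes and B cells were in turn chosen by genes of their own lists (Ly6c2, Ccr2 and Lyz2, and the capped B cell genes). The contrasts with them below were therefore partly set too. All 4 erythroid and all 5 cycling-cell markers were at 0, as were 6 of 7 eosinophil markers (2 UMIs of Ccr3 in all) and 4 of 5 basophil and mast cell markers (1 UMI of Cpa3). Of the classical monocyte markers, 1 of 7 (Fn1) was at 0, and the list made up 0.314 to 0.487% of UMIs in the 4 mice, against 4.67% in monocytes. The macrophage list (none of 8 at 0) made up 0.0609 to 0.104% of UMIs, against 0.154% in B cells, and the B cell list (none of 5 at 0) 0.0204 to 0.0399%, against 0.801% in B cells. T cell genes (1 of 5 at 0) reached at most 0.00945%, platelet genes (2 of 3 at 0) 0.00866%, and cardiac stromal or muscle genes (2 of 4 at 0) 0.00866% of UMIs in any mouse. NK cell genes (none of 4 at 0) ranged over 0 to 0.0882%, with 68 of their 90 UMIs from Gzma. The part these low counts have in the results below was not tested, except where values are given.

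Neutrophils were a larger share of the leukocytes in most DOCA-salt ventricles, but the groups overlapped. The shares in DOCA-salt mice 1 to 4 were 0.271% (6 of 2213 cells), 1.68% (32 of 1910), 3.59% (28 of 779) and 1.97% (42 of 2128). In sham mice 1 to 4 they were 0.611% (6 of 982), 0.164% (2 of 1218), 0 of 627 and 0 of 1291, where a count of 0 allows up to 0.478% and 0.232% by the 3-count rule used for zeros here, and 0.587% and 0.285% by the exact 95% interval. DOCA-salt mice 2, 3 and 4 lay above all sham mice, while DOCA-salt mouse 1 lay below sham mouse 1. Without the limits on C1q, Cd3 and B cell genes, an alternative added after seeing the data, DOCA-salt mouse 1 was at 0.587% and its group's remaining mice at 1.73 to 3.98%. Sham mice 1 to 4 were then at 0.611, 0.164, 0.159 and 0.0775%. The means were 1.88% ± 1.36 in DOCA-salt mice and 0.194% ± 0.289 in sham mice (SD, n = 4 each), a difference of 1.68 percentage points (1.11 without DOCA-salt mouse 3), with a two-sided exact permutation p of 0.0571, where the smallest possible is 0.0286. Because these are shares of sorted CD45+ cells, more neutrophils and fewer other leukocytes cannot be told apart. With B cells left out of the denominator the difference was 3.02 points at the same p.

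**Figure D1:**
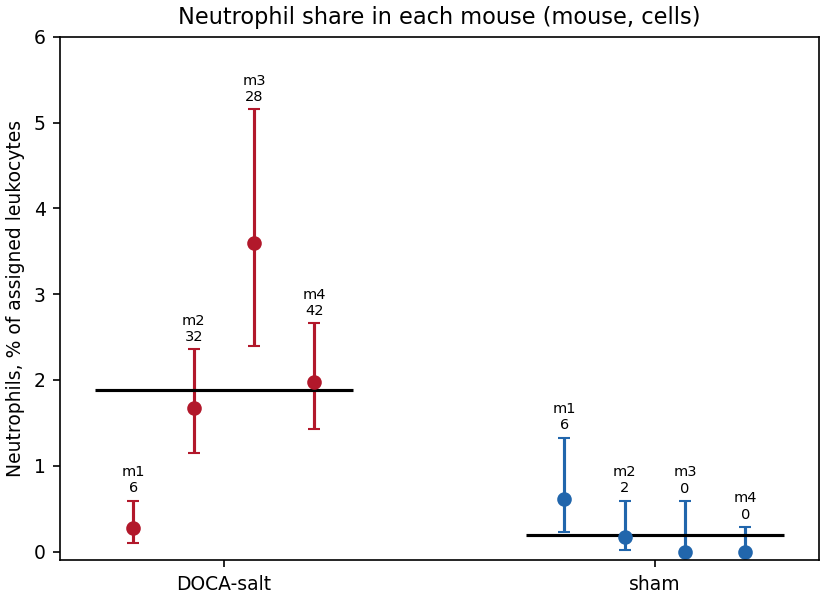
Neutrophils as a percentage of the assigned leukocytes of each mouse (points), with exact 95% intervals that cover counting error only, and the group mean (black line). The number under each mouse label is its count of neutrophils. DOCA-salt mice 2 to 4 sit between 1.68% and 3.59%, above all 4 sham mice, and DOCA-salt mouse 1 sits at 0.271%, below sham mouse 1 at 0.611%.

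The share of S100a8 and S100a9, which chose the cells, ran from 5.66 to 32.1% of UMIs in DOCA-salt members (median 13.9%) and from 6.24 to 22.7% in sham members (median 16.2%). The barcode closest below the limit stood at 4.98% in DOCA-salt and 4.56% in sham. The limit did not fall in an empty range: of 14 assigned DOCA-salt barcodes at 2 to 5% that met the lineage limits, all held Csf3r and 12 held Cxcr2, and of 12 at 0.5 to 2%, 10 held each. These barcodes had a median of 1598 and 932.5 UMIs. Between members at 5 to 10%, 10 to 20% and 20 to 40%, Cxcr2 averaged 3.07, 3.08 and 3.23 UMIs a cell and Csf3r 4.37, 4.34 and 3.91, while Retnlg averaged 15.3, 43.9 and 73.2, with median depths of 1768, 2155 and 2330 UMIs. These values describe cells sorted by the share that chose them, at depths that differ, and no test was made of them.

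**Figure D2:**
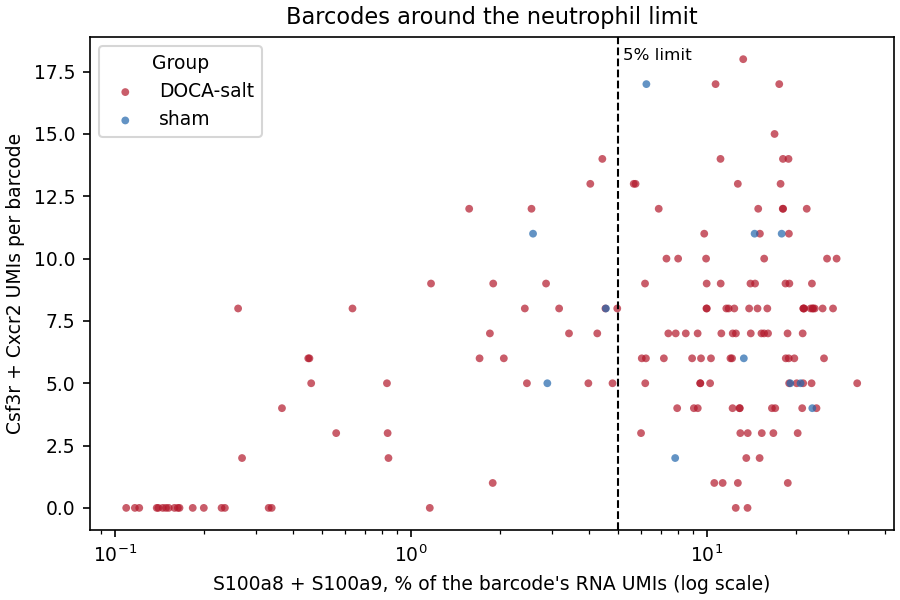
Each point is a barcode that met the quality, hashtag and lineage limits, placed by the share of its RNA UMIs from S100a8 and S100a9 (log scale) and by its UMIs of Csf3r and Cxcr2 together. Barcodes with several receptor UMIs continue to the left of the 5% limit (dashed), where 14 DOCA-salt barcodes lie at 2 to 5%.

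The 4 genes that describe neutrophil states differed widely in how many DOCA-salt cells held them. Retnlg and Cxcr2 marked nearly all cells, and Camp and Siglecf few. Retnlg was found in 100, 100, 96.4 and 100% of the neutrophils of mice 1 to 4 (99.1% ± 1.79, SD, n = 4), and Cxcr2, the receptor for CXCL1 and CXCL2, in 83.3, 87.5, 85.7 and 92.9% (87.4% ± 4.05). B cells of the same library, which should lack both, held them in 2.18% and 0.324% of cells. With each cell thinned to 1000 UMIs, 99.1% of 106 neutrophils held Retnlg and 78.3% held Cxcr2, against 0 of 93 monocytes for either. Both genes were found together in 95 cells, Retnlg alone in 12 and Cxcr2 alone in 1.

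Camp, the cathelicidin of secondary granules, was found in 1 of 108 cells (0.926%, exact 95% interval 0.0234 to 5.05%). That cell came from mouse 2, was the deepest neutrophil at 7778 UMIs, and held 89 UMIs of Camp, 181 of Ngp, 92 of Lcn2, 48 of Mmp8 and 20 of Ltf, which are granule genes, and 4 of Cebpe, the factor that drives secondary granule genes, with 0 of Il1b. It also held 211 UMIs of Retnlg and 7 of Cxcr2, and its calprotectin share was 27.4%. It held every Camp and Ltf UMI found in neutrophils. Ngp, a neutrophil granule protein, was found in 7 further cells, all of them among the 28 of mouse 3. None of the primary granule genes Mpo, Elane and Ctsg, nor the marrow precursor gene Ms4a3, was found in a DOCA-salt neutrophil, which allows up to 2.78% of cells with a UMI, and Prtn3 gave 3 UMIs in 2 cells.

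Siglecf was found in 5 of 108 cells (4.63%, 1.52 to 10.5%), against 0.0294% of B cells and 0 of 93 monocytes, which allows up to 3.23%. With each cell thinned to 1000 UMIs, 2 of 106 neutrophils held it (1.89%) and no monocyte. By mouse it was found in 16.7, 3.13, 3.57 and 4.76% of neutrophils, and the highest value is 1 of the 6 cells of mouse 1. Of the 5 cells, 4 held 1 UMI and the cell of mouse 1 held 3. All 5 also held Retnlg (10 to 173 UMIs), Cxcr2 (4 to 9), Csf3r and Il1b (6 to 53), and none held Camp or Ccr3. Epx, Prg2, Ear1, Ear2, Ear6 and Il5ra, markers of eosinophils, which carry Siglecf in mice, were at 0 in all 108 cells. With 5 cells, no mouse had 5 on each side of the split, so genes of Siglecf cells were not tested.

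**Figure D3:**
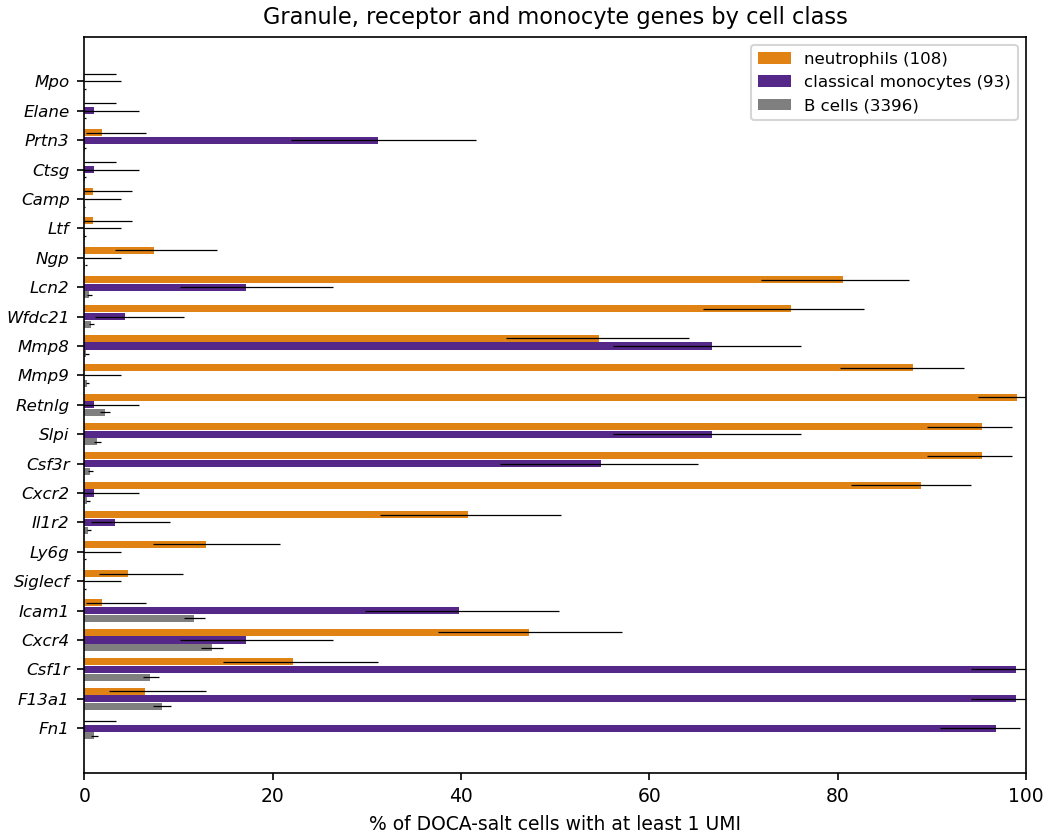
Percentage of DOCA-salt neutrophils (108), classical monocytes (93) and B cells (3396) with at least 1 UMI of each gene, with exact 95% intervals for counting error. Retnlg, Cxcr2, Csf3r and Mmp9 fill most neutrophils, primary granule genes and Fn1 are at or near 0 in them, and depth differs between the classes (medians of 2071, 9341 and 2996 UMIs).

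The promoters of the genes that chose or split the cells are shown so that their sequences can be compared. They are the 250 bases before the RefSeq start site (build GRCm38.p6), on the strand of the gene, with matches in capitals. The motifs searched on both strands were a C/EBP-type site (TTNNGNAA, in 36.8% of 32851 promoters of this length), a PU.1-type site (GAGGAA, 23.3%) and a TATA box (TATAAA, 12.4%). Retnlg lies at chr16:48872358-48872607 (plus strand), S100a8 at chr3:90668821-90669070 (plus), Cxcr2 at chr1:74153744-74153993 (plus) and Camp at chr9:109849457-109849706 (minus).
Retnlg: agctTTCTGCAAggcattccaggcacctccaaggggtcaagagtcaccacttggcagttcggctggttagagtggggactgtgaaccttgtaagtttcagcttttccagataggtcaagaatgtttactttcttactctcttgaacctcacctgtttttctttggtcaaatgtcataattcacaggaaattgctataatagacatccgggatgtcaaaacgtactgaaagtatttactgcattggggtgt
S100a8: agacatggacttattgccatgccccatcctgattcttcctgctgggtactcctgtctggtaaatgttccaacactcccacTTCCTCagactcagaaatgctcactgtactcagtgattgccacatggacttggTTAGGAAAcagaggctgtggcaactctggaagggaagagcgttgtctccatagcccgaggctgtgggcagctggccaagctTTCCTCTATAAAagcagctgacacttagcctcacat
Cxcr2: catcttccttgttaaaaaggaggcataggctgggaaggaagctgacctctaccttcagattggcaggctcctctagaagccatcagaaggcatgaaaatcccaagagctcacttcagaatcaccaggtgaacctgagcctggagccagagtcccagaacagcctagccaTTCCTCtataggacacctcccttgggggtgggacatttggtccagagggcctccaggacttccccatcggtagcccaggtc
Camp: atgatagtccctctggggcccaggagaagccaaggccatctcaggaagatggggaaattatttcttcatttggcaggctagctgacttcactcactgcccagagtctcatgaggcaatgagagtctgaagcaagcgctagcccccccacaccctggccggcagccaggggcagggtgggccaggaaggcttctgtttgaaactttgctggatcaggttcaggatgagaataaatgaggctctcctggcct
Retnlg held a C/EBP match at -246. S100a8 held a C/EBP match at -117 and PU.1-type matches on the minus strand at -170 and -36, the second of which adjoins a TATA box at -30 without overlap. Cxcr2 held a PU.1-type match on the minus strand at -81, and Camp held no match to these letters in this window. A match is a description of the letters and not a binding site.

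Within the 108 cells, Retnlg and Cxcl2 had the largest variance relative to Poisson counting, a measure that tends to be larger for abundant genes. Of 360 Cxcl2 UMIs, 107 came from 1 cell. The variance of counts was 29.4 times that of Poisson counting for Retnlg (median 27 UMIs, highest 262) and 28.7 times for Cxcl2 (median 0, highest 107), against a median of 1.15 over 1152 genes found in at least 20% of the cells. S100a8 and S100a9, used by the rule, came next. Across the cells the genes most like Retnlg, by Spearman correlation of values per 10000 UMIs, were S100a9 (0.61), S100a8 (0.53), Pglyrp1 (0.39), Mmp8 (0.37) and Lyz2 (0.37), while Retnlg also tracked the depth of the cell (0.31). The genes most like Cxcr2 were Pfkfb4 (0.36), Fosb (0.31), Bin3, Socs3 and Vps28 (0.29 each), values that do not stand out in counts this sparse. Camp and Siglecf were found in too few cells to be ranked.

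Cxcl2, which encodes a ligand of Cxcr2, was found in 40 of 108 neutrophils, 3, 9, 13 and 15 in mice 1 to 4, with median depths of 2163 UMIs in Cxcl2 cells and 1997.5 in the others. It was singled out after its values were seen. Cells with and without Cxcl2 held Retnlg at 23994 and 23139.8 CPM, Csf3r at 2394 and 2303 CPM and Il1b at 11462 and 9685 CPM. Cxcr2 stood at 1471 CPM in Cxcl2 cells, against 1852 CPM in the others, and was lower in Cxcl2 cells in each of mice 2, 3 and 4. Levels in CPM are here relative to the UMIs outside the genes that chose neutrophils or monocytes, and these differences between cells were not tested. Ccl3, another chemokine, stood at 294 CPM in Cxcl2 cells, against 156 CPM in the others. In mice 2, 3 and 4 it stood at 332, 308 and 304 CPM in Cxcl2 cells, against 105, 0 and 294 CPM in the others. The gap was thus near absent in mouse 4.

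Classical monocytes of the same 4 mice served to show what sets neutrophils apart from the other myeloid cells that enter the ventricle. They were 93 barcodes (38, 13, 10 and 32 by mouse) with at least 2 UMIs of Ly6c2, 1 of Ccr2 and 10 of Lyz2 under the same limits, with at most 1 UMI of NK cell genes and 1 of Cd209a. UMIs were summed per mouse and class, giving 9457 to 80542 in neutrophils and 96623 to 317875 in monocytes, and the 17 genes of the gates were left out. Of 1425 genes tested with the mouse as a block (edgeR's quasi-likelihood test, Benjamini-Hochberg adjusted p under 0.05), 426 (29.9%) were higher and 501 (35.2%) lower in neutrophils, 65.1% in all. In 58.8% of genes the classes did not overlap over the 4 mice, so a single call or gap is common here. A gene scarce in 1 class passes the filter on low counts only through the other class, where it is high. The gene lists were also chosen with earlier results of these data known. Counts of list members below therefore describe the classes and are not a test of the lists. The median log2 change over all genes was -0.09, and -0.24 with RLE size factors, so changes near 0 depend on the scaling. These are levels relative to each class's UMIs: a neutrophil holds fewer molecules, so a higher CPM can go with equal or fewer molecules per cell.

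Among genes of neutrophil identity, 10 of 11 tested were higher and 1 (Cd177) was lower, with a median log2 change of 6.54. Beside them, 29.9% of all genes were higher and 35.2% lower. Several of the 10, such as Retnlg and Cxcr2, passed the filter on low counts only through the neutrophils. Retnlg (chromosome 16, 48872621 to 48874496, plus strand, build GRCm38 as for all genes below) had 26435, 20140.5, 22618 and 25875 CPM in the neutrophils of mice 1 to 4, against 3.15, 0, 0 and 0 CPM in their monocytes. The classes were far apart in every mouse, the monocyte value being 1 UMI. The ratio of summed CPM was 18976 (counting interval 3404 to 749664; log2 change 13.47 ± 0.28 SE, adjusted p = 1.41e-25).

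Cxcr2 (chromosome 1, 74153989 to 74161246, plus strand) had 1480.4, 1653, 1810.2 and 1701 CPM in neutrophils, against 0, 0, 0 and 3.44 CPM in monocytes. Again every mouse separated the classes, on 336 UMIs against 1 (ratio 1381, 246 to 54693; log2 change 9.53 ± 0.41, adjusted p = 1.24e-17). Csf3r (chromosome 4, 126024550 to 126044440, plus strand) had 2855, 2442, 2258 and 2259.7 CPM in neutrophils, against 104, 77.6, 82.8 and 124 CPM in monocytes. Monocytes thus held the G-CSF receptor too, at a lower level in every mouse (log2 change 4.62 ± 0.21, adjusted p = 4.15e-17), and 4.26 UMIs a cell in neutrophils stood against 0.914 in monocytes.

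G0s2, an inhibitor of the lipase ATGL, had 846, 1165, 1269 and 1266 CPM in neutrophils and no UMI in monocytes, at least 329-fold higher against a floor of 3 counts over the monocytes (adjusted p = 1.6e-15). Hdc, which makes histamine, averaged 2416 ± 465 CPM in neutrophils and 13.6 ± 18.8 CPM in monocytes (SD, n = 4 mice). Il1r2, the decoy receptor of interleukin-1, averaged 394 ± 118 and 2.43 ± 3.04 CPM in neutrophils and monocytes, and both genes were higher in all 4 mice (log2 changes 7.79 and 6.54, adjusted p = 1.56e-17 and 3.6e-11). Ly6g, the antibody target that usually defines mouse neutrophils, gave 30 UMIs in 14 of 108 cells and none in monocytes, and did not pass the filter on low counts.

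Which granule a gene belongs to was taken from the lists and was not tested. The genes listed for gelatinase granules were higher in neutrophils in 5 of 5 cases (median log2 change 4.76), beside 29.9% of all genes. Of these, Retnlg, Mmp9 and Adam8 averaged 0.786, 0 and 26.1 CPM in monocytes and passed the filter on low counts only through the neutrophils. Mmp9, the gelatinase (chromosome 2, 164940780 to 164955850, plus strand), had 1375, 1522, 1530.25 and 1515 CPM in neutrophils and no UMI in monocytes, at least 408-fold higher (adjusted p = 4.58e-16). The 4 neutrophil values lay within a narrow range. Slpi, an inhibitor of elastase, Adam8 and Mmp8 had log2 changes of 4.76, 4.33 and 2.09. The collagenase Mmp8, the smallest change of the 5, gave 185 UMIs in neutrophils and 184 in monocytes. Of the 185, the Camp cell of mouse 2 held 48.

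The genes listed for secondary granules were divided, with 2 higher and 2 lower of 4 tested, beside 29.9% and 35.2% of all genes. Lcn2, the iron-siderophore binding lipocalin, had 2432, 4622, 3527 and 2421 CPM in neutrophils, against 25.2, 48.5, 228 and 17.2 CPM in monocytes (log2 change 5.77 ± 0.43, adjusted p = 2.31e-06). Wfdc21 was also higher (7.40), though at 317 CPM in mouse 1 against 1689 to 2743 CPM in the neutrophils of the other mice. Chil3 had 634, 207, 112 and 12.4 CPM in neutrophils, against 3539, 3461, 5847 and 3587 CPM in monocytes, lower in every mouse (log2 change -4.91 ± 0.47, adjusted p = 2.76e-05). Cd177 averaged 134 ± 52.9 CPM in neutrophils and 464 ± 71.5 CPM in monocytes (log2 change -1.70, adjusted p = 1.08e-05). Single cells weigh on the neutrophil values. Of 24 Chil3 UMIs, 10 came from the Camp cell of mouse 2, 6 from a cell of mouse 1 and 4 from a cell of mouse 3. The Camp cell also held 92 of 653 Lcn2 UMIs, 53 of 415 of Wfdc21 and 9 of 26 of Cd177. No primary granule gene had counts enough to be tested.

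**Figure D4:**
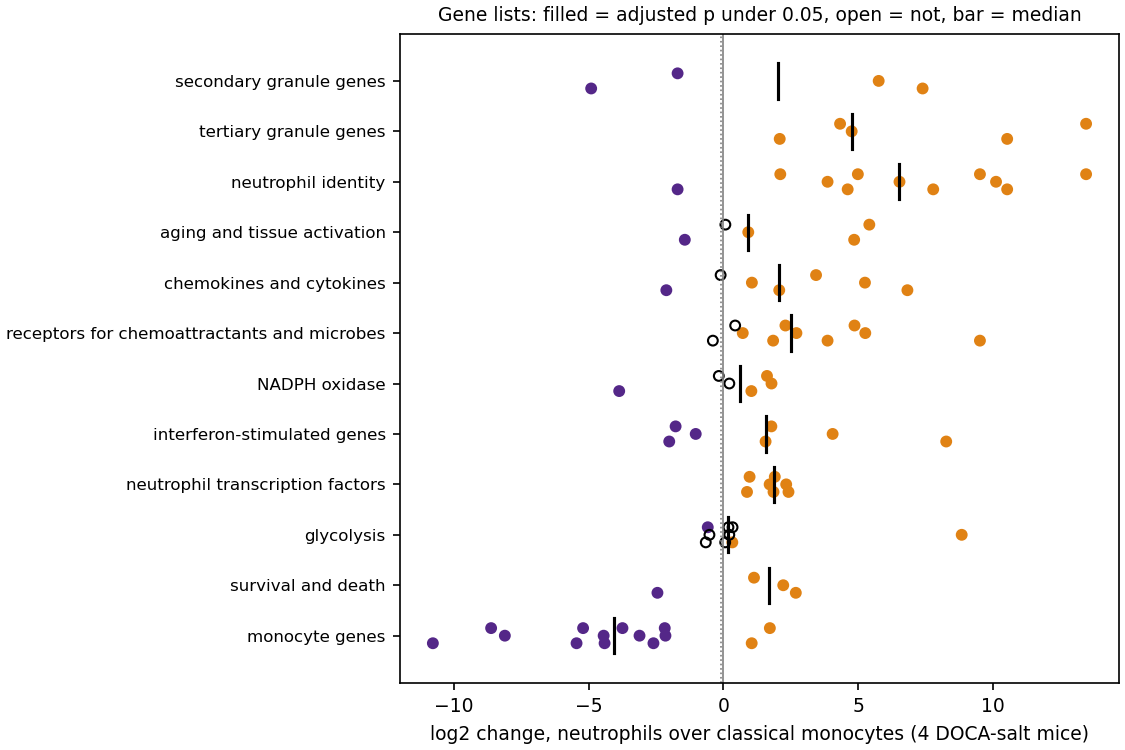
Log2 change of neutrophils over classical monocytes (4 DOCA-salt mice) for each tested gene of 12 lists, with filled points for genes past the threshold, open points for the others, bars for list medians and the dotted line for the median of all 1425 genes (-0.09). The genes listed for gelatinase (tertiary) granules and for identity lie mostly to the right, monocyte genes mostly to the left, and NADPH oxidase and glycolysis genes on both sides of 0.

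Of the receptors for chemoattractants and microbes, 8 of 10 tested were higher and none lower (median 2.51), beside 29.9% and 35.2% of all genes. C5ar1, the receptor for complement C5a, averaged 1213 ± 324 CPM in neutrophils and 35.5 ± 22.5 CPM in monocytes (log2 change 5.27 ± 0.31, adjusted p = 1.2e-14). Fpr1, the formyl peptide receptor, rose by 4.87, Clec4d by 3.87, Ccr1 by 2.71 and Clec4e by 2.31 on the log2 scale. Ltb4r1 and Tnfrsf1b did not pass (log2 changes 0.44 and -0.39).

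Among chemokines and cytokines, 5 of 7 tested were higher and 1 lower (median 2.08), beside 29.9% and 35.2% of all genes. Cxcl2 (chromosome 5, 90903871 to 90905938, plus strand) had 4229.7, 864, 3583 and 1018 CPM in neutrophils, against 9.44, 0, 41.4 and 27.5 CPM in monocytes. Mice 1 and 3 were high and mice 2 and 4 low among neutrophils, and all lay above the monocytes (log2 change 6.83 ± 0.35, adjusted p = 9.28e-16). Single cells weigh on the order of the mice. Of 360 Cxcl2 UMIs in neutrophils, 107 came from 1 cell of mouse 3 and 30 from 1 of the 6 cells of mouse 1. Ptgs2, the inducible cyclooxygenase, Osm and Ccl6 were higher by 5.26, 3.44 and 2.08. Ccl3 was higher by 1.06, but in 4 of 12 alternatives that measured it this call was lost (adjusted p up to 0.678). Tgfb1 was lower (149 ± 49.8 CPM in neutrophils and 634 ± 90.4 CPM in monocytes, log2 change -2.12, adjusted p = 2.55e-07), and Ccl4 did not pass (-0.10).

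The list of aging and tissue activation genes had 3 of 5 tested higher and 1 lower, beside 29.9% and 35.2% of all genes. A further 7 members, Siglecf and Icam1 among them, were too low to test. Il1b (chromosome 2, 129364570 to 129371139, minus strand) had 11843, 8642, 13660.3 and 9126 CPM in neutrophils, against 164, 175, 217 and 457 CPM in monocytes. It was found in 105 of 108 neutrophils, with 18.9 UMIs a cell against 2.41 in monocytes, and it was higher in every mouse (log2 change 5.42 ± 0.27, adjusted p = 4.72e-09). Cxcr4, which retains aged neutrophils or returns them to the marrow, was found in 47.2% of neutrophils and was higher by 4.86 (adjusted p = 7.22e-12). Nfkbia was higher by 0.93, a call lost in 4 of 14 alternatives (adjusted p up to 0.103), Xbp1 was lower (-1.43, adjusted p = 0.000249) and Hif1a did not pass (0.08). Icam1 gave 2 UMIs in 2 neutrophils, against 66 UMIs in 37 monocytes.

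Of 6 genes of the NADPH oxidase, which makes superoxide, 3 were higher, 1 was lower and 2 did not pass. With 65.1% of all genes called, this count does not set the oxidase apart. Cybb, its catalytic subunit gp91phox (chromosome X, 9435252 to 9487771, minus strand), had 0, 113, 168 and 62.1 CPM in neutrophils, against 1425, 1997, 1552 and 1333 CPM in monocytes. It was lower in every mouse (log2 change -3.87 ± 0.28, adjusted p = 1.03e-12). Among those higher were the GTPase Rac2 and the cytosolic subunit Ncf1, by 1.79 and 1.62, while Cyba, the membrane partner of Cybb, stood at 0.22 with an adjusted p of 0.182.

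All 7 transcription factors tested were higher, beside 29.9% of all genes: Junb (2.42), Klf2 (2.33), Fosl2 (1.91), Cebpd (1.86), Nfe2 (1.72), Cebpb (0.98) and Spi1, or PU.1 (0.88). The call on Spi1 was lost in 1 of 14 alternatives (adjusted p 0.0969). Gfi1, a factor of granulocyte precursors, was at 0 in both classes, and Cebpe and Cebpa were too low to test. Per cell, all 7 were lower in neutrophils, so the higher levels are relative to each class's UMIs. Junb stood at 16.2 UMIs a cell in neutrophils and 17.1 in monocytes. Cebpb gave 716 UMIs in 108 neutrophils, against 1583 in 93 monocytes, and Spi1 308, against 671.

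Interferon-stimulated genes went both ways, with 4 higher and 3 lower of 7 tested, beside 29.9% and 35.2% of all genes. Ifitm1 had 1480.4, 1597, 4068 and 2520.4 CPM in neutrophils, against 3.15, 19.4, 0 and 6.87 CPM in monocytes. Its relative Ifitm3 stood at 1308 ± 448 CPM in neutrophils, against 5156 ± 1069 CPM in monocytes. The pair of family members thus differed in opposite directions in every mouse (log2 changes 8.27 ± 0.33 and -2.01 ± 0.15, adjusted p = 2.97e-18 and 1.92e-12). Slfn4 was higher (4.06) and Irf7 lower (-1.77). Isg15, Oasl2 (higher by 1.57 and 1.78) and Ifi27l2a (-1.02) overlapped between the classes, and each lost its call in 1 of 14 alternatives (adjusted p up to 0.254).

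Of 9 glycolysis genes tested, 2 were higher, 1 was lower and 6 did not pass, with a median of 0.19, beside 29.9% higher and 35.2% lower over all genes. Slc2a3, the glucose transporter GLUT3, had 529, 413, 355 and 435 CPM in neutrophils and no UMI in monocytes, at least 111-fold higher (adjusted p = 2.02e-11). Gapdh was called higher by 0.33 (adjusted p = 0.046), a call kept in 1 of 14 alternatives, and Eno1 lower (-0.58), kept in 11 of 14. Of 4 survival and death genes, Gadd45b (2.69), the anti-apoptotic Mcl1 (2.22) and Pim1 (1.14) were higher and the pro-apoptotic Bax was lower, at 23.4 ± 17.9 CPM in neutrophils and 189 ± 29.2 CPM in monocytes (-2.45, adjusted p = 0.000121).

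Beyond the lists, genes with the largest changes toward neutrophils were Stfa2l1, a stefin-type protease inhibitor (2160 ± 1140 CPM), H2-Q10, a secreted class I molecule (877 ± 77.4 CPM), Il1f9, or interleukin-36 gamma (428 ± 148 CPM), the iron exporter Slc40a1 (477 ± 158 CPM) and the retinol dehydrogenase Rdh12 (262 ± 117 CPM). None of these 5 gave a UMI in monocytes, so they were at least 601, 239.7, 114, 139.7 and 58.9-fold higher (adjusted p = 3.38e-17, 1.67e-14, 1.72e-11, 5.22e-12 and 5.02e-09). Stfa2l1 and H2-Q10 have near-identical relatives, between which the counting could split reads, and are uncertain. The tetraspanin Cd9 stood at 632 ± 169 CPM in neutrophils, with 1 UMI in monocytes (ratio 473, 83.1 to 18825).

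Genes of monocytes were lower in 12 of 14 cases, with a median of -4.08, beside 35.2% of all genes. Some of them, such as Fn1, Vcan and Ms4a6c, passed the filter on low counts only through the monocytes. Fn1, fibronectin (chromosome 1, 71585520 to 71653200, minus strand), had no UMI in neutrophils, against 1475, 2036, 1894 and 1573 CPM in monocytes, at least 107-fold lower (adjusted p = 1.67e-14). Vcan, or versican, was at least 22.1-fold lower, and Ms4a6c gave 1 UMI in neutrophils and 1483 in monocytes. Csf1r, the M-CSF receptor, had 0, 169, 131 and 161 CPM in neutrophils, against 667, 766, 435 and 811 CPM in monocytes, and was found in 22.2% of neutrophils, above the 7.04% of B cells (log2 change -2.15, adjusted p = 2.81e-07). Outside the list, Lrp1, Nupr1, Tmem256, Scpep1, Dusp22, Plxnb2 and Stxbp6 gave no UMI in neutrophils and were at least 8.44 to 16.8-fold lower, and Ms4a4a and Plac8 gave 1 and 4 UMIs, against 588 and 1551 in monocytes.

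The 2 members of that list that were higher in neutrophils were the class II genes Cd74 and H2-Aa, by 1.05 and 1.73, calls that 13 of 14 alternatives kept (adjusted p up to 0.148). Per cell they were lower, with 2.33 UMIs of Cd74 and 0.574 of H2-Aa in neutrophils, against 7.74 and 1.47 in monocytes. B cells, 3396 of the 7030 assigned DOCA-salt cells, held them in 99.9% and 99.0% of cells. The B cell gene Cd79a, capped by the gates, stood at 91.5 CPM in neutrophils and 11.1 CPM in monocytes, and Ighm at 208 and 231 CPM. The part of B cell RNA in these 2 calls was not tested.

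Of 16 surface antibodies, which the RNA rule did not use, the level on neutrophils, among those reported, was highest for CD11b, CD44 and CD39 (listed in the file as CDc39). Levels are centred log ratios on the log2 scale, averaged per mouse. CD39, the ectonucleotidase encoded by Entpd1, stood at 2.50, 2.97, 3.04 and 2.97 on neutrophils of mice 1 to 4, against 1.32, 1.42, 1.55 and 1.27 on monocytes. It was above the monocytes in 4 of 4 mice (2.87 ± 0.25 on neutrophils and 1.39 ± 0.12 on monocytes, SD, difference 1.48). CD11b, the integrin of myeloid cells, stood at 6.65 ± 0.29 on neutrophils and 5.88 ± 0.21 on monocytes (difference 0.76, above in 4 of 4 mice), and Gal3 at -0.46 ± 0.32 and -0.05 ± 0.26 (difference -0.41, below in 4 of 4 mice). Scaled to the antibody total of the cell instead, the differences were 1.20 for CD39, 0.49 for CD11b and -0.66 for Gal3. CD11c was above the monocytes in 4 of 4 mice (0.25), but its difference was 0.014 on that scale (exact sign-flip p = 0.875). TIGIT, CCR7, NK1.1, CD64, CD80 and PD-1 were below in 4 of 4 mice, by differences of -0.34 to -0.23. Both scales are relative to the other antibodies of the cell. In median UMIs these 6 were not clearly lower on neutrophils. TIGIT stood at 28.5 on neutrophils and 25 on monocytes, CCR7 at 5 and 5, and NK1.1 at 26 and 26. CD64 stood at 204.5 and 208, CD80 at 185 and 185, and PD-1 at 10 and 8. CD3, CD4, CD8a, CD44 and TCRyd were not on 1 side in all mice. With 4 mice the two-sided exact sign-flip test cannot go below 0.125, which is the p of each antibody that lay on 1 side in all 4 mice, 0.182 adjusted over 16 antibodies. CD3 and NK1.1, of T and NK cells, stood at 0.43 and -1.52 on neutrophils, against 0.54 and -1.01 on B cells.

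By centred log ratio, RNA and antibody lay on the same side for CD39, Gal3, CD64 and CD11b, while CD44 was unclear. On B cells Gal3 stood at -0.02 and CD64 at 1.31, beside -0.05 for Gal3 on monocytes and 1.34 for CD64 on neutrophils. Gal3 was thus not above B cells on either class, and CD64 on neutrophils was near their level. CD39 and CD11b stood at 1.53 and 1.60 on B cells, below the neutrophils. Entpd1 gave 85 UMIs in 52 of 108 neutrophils and 12 in 12 of 93 monocytes, at 106, 470, 448 and 435 CPM in neutrophils, against 18.9, 9.70, 10.3 and 13.7 CPM in monocytes, but did not pass the filter. Lgals3, which encodes galectin-3, stood at 741 ± 155 CPM in neutrophils and 2804 ± 480 CPM in monocytes (log2 change -1.76, adjusted p = 9.45e-10), and Fcgr1, which encodes CD64, was also lower (-2.59, adjusted p = 0.00105). Itgam, which encodes CD11b, gave 34 UMIs in neutrophils and 66 in monocytes and was not tested, at 112 to 244 CPM in neutrophils and 67.9 to 85.9 CPM in monocytes. Cd44 was higher in RNA (1.77, adjusted p = 4.44e-08). The CD44 antibody differed by -0.17 and was above the monocytes in 1 of 4 mice, while its median was 8012 UMIs on neutrophils and 5929 on monocytes.

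**Figure D5:**
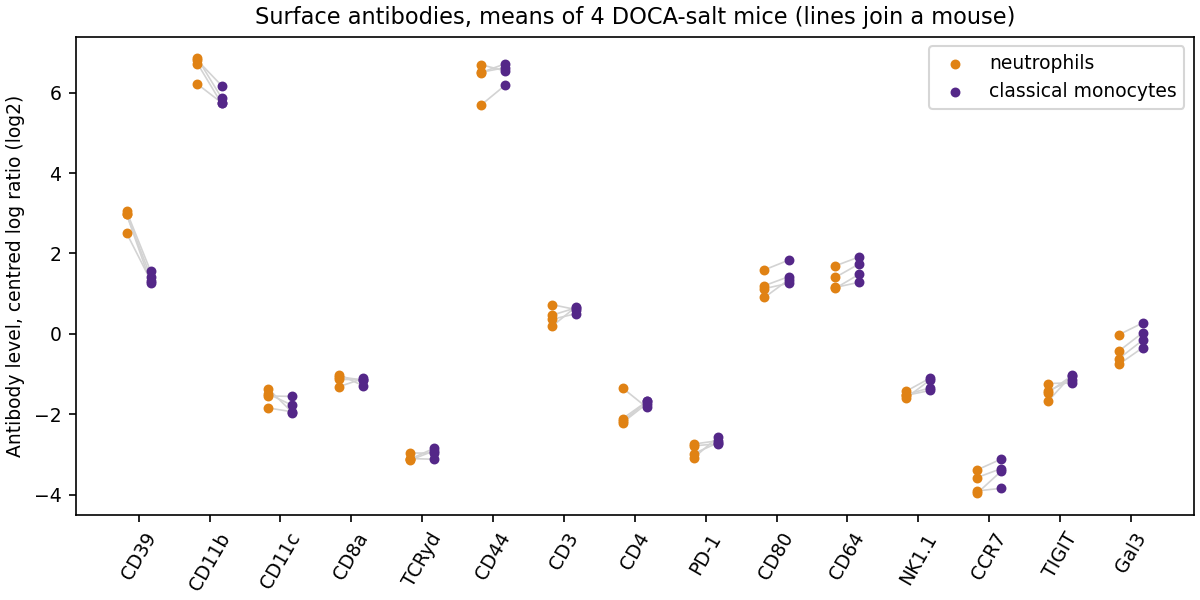
Mean level of surface antibodies (centred log ratio, log2) on neutrophils and classical monocytes of each DOCA-salt mouse, with a line joining the classes of a mouse. CD39 and CD11b lie above the monocytes in all 4 mice and Gal3 below, at differences of 1.48, 0.76 and -0.41.

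The 8 sham neutrophils, 6 of mouse 1 and 2 of mouse 2, allow a description only, with no test. Retnlg was found in 107 of 108 DOCA-salt and 7 of 8 sham cells, Cxcr2 in 96 and 7, Csf3r in 103 and 8, and Il1b in 105 and 8. Neither Camp nor Siglecf was found in the sham cells. Cxcr2 stood at 1707 CPM in DOCA-salt and 2085 CPM in sham cells (sham counting interval 1374 to 3034), and Mmp9 at 1514 and 1236 CPM (706 to 2007), so that both DOCA-salt levels lay within the sham intervals.

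The following genes were picked after their values in the sham cells were seen. G0s2 was at 846 to 1269 CPM in DOCA-salt mice, against 2020.0 and 8470 CPM in sham mice 1 and 2. Cebpb was at 2538 to 4497 CPM in DOCA-salt mice, against 4784 and 14116 CPM in sham mice, and Junb at 7196 to 12055 CPM, against 14778 and 21739 CPM. Retnlg, at 20140.5 to 26435 CPM in DOCA-salt mice, stood at 18393 and 9317 CPM in sham mice. The sham value of mouse 2 rests on 2 cells, and how many genes differ as much between these mice was not counted. An interferon-stimulated gene, Rsad2, gave 14 UMIs in 7 DOCA-salt cells and 18 UMIs in 1 sham cell.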

How the data were processed

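The authors deposited raw UMI counts of 31053 genes and 20 antibodies (4 hashtags, 16 surface antibodies) per barcode, 1 matrix a group, with text lists of barcodes and features; Cell Ranger 3.1.0 is named in the file headers, and Seurat 4 and build mm10 in the submitters' processing notes. The gates follow the report, and Scrublet (scanpy 1.11.5, Python 3.11.15) marked doublets. The members and gene lists were chosen with earlier results of these data known. Counts were summed per mouse and class and compared with edgeR 4.0.16 (R 4.3.3; filterByExpr, TMM, quasi-likelihood test, mouse as block, Benjamini-Hochberg adjustment), with DESeq2 1.42.0 as an alternative. Both classes of a number came from the same mouse, which is why the mouse is a block; deviations of the same mouse correlated at 0.167, -0.029, 0.309 and 0.364 over 333 genes. Counts were simulated from 1 profile shared by both classes (1374 genes, 27 changed 2-fold and 30 changed 4-fold, dispersion set at 0.1). In them 22.2% of 2-fold and 83.3% of 4-fold changes were recovered, and 3.13% of calls were false. In the data 65.1% of genes were called, far more than were changed in the simulation, so these rates need not hold there. Genes were named when among the 12 largest called log2 changes in a direction with at least 50 CPM in the higher class and no overlap, or as list members; the ranking left out antigen receptor, sex-linked, globin, mitochondrial and ribosomal protein genes and numbered gene models. Shares were compared with an exact permutation test (scipy 1.17.1) and antibodies with an exact sign-flip test. Intervals (exact, 95%) and floors of 3 counts cover counting error only. Results of some genes and antibodies are not reported here.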

Additional observations from a re-analysis of the deposited data

Results flagged for a closer look

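Of 86 sets of 4 mice looked at, 13 held a value far from the other mice. The limit is set so that chance gives about 1 in 20 for continuous values. A set whose other mice tie at the same value is always flagged, as with Retnlg and Camp shares and 1-UMI values below. The number of flags can therefore not be set against that rate. For 3 of them the value is a share resting on 1 cell: Retnlg in 96.4% of neutrophils in mouse 3 (100% in the other mice), Camp in 3.13% in mouse 2 (0 in the others) and Siglecf in 16.7% in mouse 1 (3.13 to 4.76% in the others). For 5 it is a CPM value made by 1 UMI, where the other mice had none: Retnlg in monocytes of mouse 1 (3.15), Cxcr2 and Cd9 in monocytes of mouse 4 (3.44 each), Ms4a6c in neutrophils of mouse 3 (18.7) and Ms4a4a in neutrophils of mouse 2 (18.8).

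The other 5 rest on more counts. Stfa2l1 stood at 3863 CPM in neutrophils of mouse 3, against 1465 to 1726 CPM in the other mice. Mmp9 stood at 1375 CPM in neutrophils of mouse 1, against 1515 to 1530.25 CPM, and Stxbp6 at 166 CPM in monocytes of mouse 3, against 126 to 129 CPM. On the neutrophils of mouse 1, which number 6, the CD39 antibody stood at 2.50 (2.97 to 3.04 in the other mice) and CD4 at -1.35 (-2.21 to -2.11).

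Outside the compared cells, 13 assigned DOCA-salt barcodes and 1 sham barcode had a calprotectin share of at least 5% but exceeded the limit on C1q genes. The 13 fell to mice 1, 3 and 4 (6, 3 and 4 barcodes) and held a median of 2546 UMIs. Cxcr2 was found in all 13, Retnlg in 12, Csf3r in 11 and Csf1r in 7.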

How the results depend on the processing

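Of the main results and their alternatives, 183 values were labelled the same, 5 were labelled moved and 2 changed sign. These labels do not test whether a result holds. Shares of cells with a gene and counts of called genes carry no p. The sign-flip p of an antibody cannot go below 0.125 with 4 mice or 0.25 with 3, so it could not pass the threshold in any setting. Without DOCA-salt mouse 1 the neutrophil shares of the groups did not overlap, and the permutation p was 0.0571. That is the smallest p possible with 3 mice against 4, so no setting with a mouse left out could pass the threshold for the share. Without a filter on low counts 1849 genes were called, 1256 of them lower and 593 higher in neutrophils (927, 501 and 426 with the filter); 11381 genes were then tested instead of 1425. Without the mouse as a replicate block 963 genes were called, 442 higher and 521 lower. DESeq2 called 815, RLE size factors gave 955, and leaving out a mouse gave 762 to 992. The mean share of neutrophils with Cxcr2, 87.4%, was 75.6% at 1000 UMIs a cell and 92.2% without Scrublet doublets, and that with Retnlg, 99.1%, was 97.3% without the lineage limits; the cause was not tested. The CD8a difference of 0.04 was -0.20 per 10000 antibody UMIs and -0.038 to 0.123 with 1 mouse left out. For the neutrophil share, the difference between DOCA-salt and sham was 1.30 to 3.02 points over the other settings and 1.11 to 2.22 with 1 mouse left out, at exact permutation p of 0.0571 to 0.114. No paired analysis was possible because the mice of DOCA-salt and sham are different animals and their hashtag numbers tie none of them together. The alternatives for Siglecf cells were not run, since 5 cells allow no test. The settings with no TMM factors, a 2% calprotectin share, no hashtag margin and no lineage limits were added after seeing the data. Depth limits what can be said of low genes: at 1000 UMIs a cell, Siglecf was found in 1.89% of neutrophils, against 4.63% at full depth.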
